A study of Homo sapiens with 60 samples.

Results

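TXNIP, its arrestin-domain relatives ARRDC4, ARRDC3 and ARRDC2, and the transcription factors MLXIPL, MLXIP and MLX make up a set of 7 genes, described here from the messenger RNA of HT29 cells exposed to herbal extracts. All 7 were found by their symbols among 60675 gene IDs in the table of expected counts. The members were selected on measured values of the comparison of Longan Arillus with Zizyphi Semen, so the levels in those extracts are given as a description and without a test.

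HT29 is a human colorectal adenocarcinoma cell line, here from the American Type Culture Collection, and each library comes from cells kept with extract or vehicle for 24 h. The 60 libraries fall into 25 groups, a vehicle group and 8 extracts at 3 doses. The vehicle was DMSO, at 0.1% by the sample labels and 2% by the series description. Yijin-tang and Soshiho-tang are water extracts of mixed herbs. Longan Arillus, Schisandrae Fructus, Aucklandiae Radix, Liriopis seu Ophiopogonis Tuber, Zizyphi Semen and Polygalae Radix were extracted in 70% ethanol. Doses of 500 (high), 100 (medium) and 20 µg/mL (low) were used except with 2 extracts. For Polygalae Radix they were 380, 76 and 15.2 µg/mL and for Aucklandiae Radix 370, 74 and 14.8 µg/mL, because the top dose was lowered to the concentration that inhibited by 20% where that lay under 500 µg/mL. Vehicle, Yijin-tang, Liriopis, Schisandrae, Longan and Zizyphi groups have 3 libraries each, Soshiho-tang groups have 2, labelled replicates 2 and 3, and Polygalae and Aucklandiae groups have 1. All cells are of the same line, and nothing in the labels says that replicates came from separate cultures, so p-values measure the spread between these libraries, which may be technical.

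TXNIP, thioredoxin-interacting protein, is an alpha-arrestin that binds reduced thioredoxin and promotes the removal of glucose transporters from the cell surface. ARRDC4, ARRDC3 and ARRDC2 are other alpha-arrestins, adaptors that bring ubiquitin ligases of the NEDD4 family to membrane proteins. ARRDC4 also lowers glucose uptake, and ARRDC3 is known for its part in the turnover of beta-adrenergic receptors. MLXIP (MondoA) and MLXIPL (ChREBP) are transcription factors that respond to phosphorylated glucose. Each pairs with MLX and binds carbohydrate response elements, of which those near TXNIP and ARRDC4 are the best known. TXNIP RNA is therefore widely read as a gauge of glucose-6-phosphate in the cell.

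Library totals ran from 18161717 to 35128954 expected counts. The first part of the library names puts the vehicle in a set of its own (C1) and the extracts, in pairs, in the sets 8 to 11, so an extract and its library set cannot be told apart in any comparison with the vehicle. Comparisons within a set are those of Yijin-tang with Soshiho-tang, Liriopis with Schisandrae, Longan with Zizyphi, Polygalae with Aucklandiae, and doses of 1 extract. All 10 markers of intestinal epithelium were present, with a median of 491 counts per 1000000 counts of a library (CPM) for EPCAM, although CDX1 reached only 1.37 CPM, and LYZ, on the leukocyte list, was at 971 CPM or more in every library. Soshiho-tang high-dose library 3, as labelled, held RNA of blood cells, with HBB at 3.30 CPM and PTPRC at 1.24 CPM where the medians were 0, and its red cell markers summed to 9.49 CPM against 0.308 CPM in the next highest library. Yijin-tang low-dose library 2, as labelled, also stood apart from its group. Calls of members that rest on either library are given with and without it, and list counts with and without the first or both.

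Levels of the 7 genes, compared per kilobase of exon, followed the order MLX, TXNIP, MLXIP, ARRDC2, ARRDC3, ARRDC4 and MLXIPL, with medians over the 60 libraries of 24.6, 14.0, 12.9, 4.36, 3.26, 1.95 and 0.0877 CPM per kb. The length used is that of all annotated exons of a gene merged, 13905 bases for MLXIP and 3625 for TXNIP. The order of these genes therefore depends on the length used, and before division by length their medians were 179 and 50.8 CPM. Of the arrestin-domain genes in the set, TXNIP was the most abundant at the RNA level. ARRDC1, which is outside the set, had a median of 63.9 CPM before division by length. The MLXIP partner of MLX was abundant and MLXIPL was close to the detection limit, with 5 to 22 counts in a library. The ID for TXNIP is ENSG00000265972, on the minus strand of GRCh38 chr1:145992435-145996600. ARRDC4 (ENSG00000140450) lies at chr15:97960698-97973838, ARRDC3 (ENSG00000113369) at chr5:91368724-91383359 and ARRDC2 (ENSG00000105643) at chr19:18001132-18014102. MLXIPL (ENSG00000009950) lies at chr7:73593194-73624543, MLXIP (ENSG00000175727) at chr12:122078722-122147347 and MLX (ENSG00000108788) at chr17:42567068-42573239. MLX had fractional counts in 59 of 60 libraries, so part of its reads was shared out with another gene and its level is less certain, whereas TXNIP, ARRDC4, MLXIP and MLXIPL had none.

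TXNIP and ARRDC4 are members whose promoters are known to carry carbohydrate response elements. Their upstream windows are shown because their levels went down together with some extracts and not with others. Each window is 200 bases long, from 250 to 51 bases before the RefSeq start on GRCh38.p14, and is written 5′ to 3′ on the strand of the gene. For TXNIP it is chr1:145996630-145996829 on the minus strand, with capitals for the single match to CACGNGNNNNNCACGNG, a pair of E-box-like elements 5 bases apart. For ARRDC4 it is chr15:97960453-97960652 on the plus strand, with capitals for the E-box CACGTG.
TXNIP: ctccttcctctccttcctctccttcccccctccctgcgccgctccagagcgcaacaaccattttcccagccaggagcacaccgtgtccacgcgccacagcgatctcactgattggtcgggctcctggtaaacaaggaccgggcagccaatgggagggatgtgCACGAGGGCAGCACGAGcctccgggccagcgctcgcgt
ARRDC4: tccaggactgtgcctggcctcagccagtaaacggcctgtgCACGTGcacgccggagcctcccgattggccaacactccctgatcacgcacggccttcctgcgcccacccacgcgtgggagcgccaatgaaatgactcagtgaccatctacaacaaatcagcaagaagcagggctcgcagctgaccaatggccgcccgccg
The TXNIP match, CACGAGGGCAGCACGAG, ends 72 bases before the start and begins 88 before it. The ARRDC4 E-box covers bases 210 to 205 before the start. Both motifs were searched on both strands, and CACGTG is itself an instance of the letters CACGNG. Of 35116 promoter windows of the same length, 13 (0.0370%) hold the paired motif and 4.51% hold the E-box. All 7 members have an entry in the promoter table, with 10 windows in all, and none of the other windows holds either motif. The letters CCAAT were in 6 of the 10 windows and in 27.4% of all windows. These matches describe the letters alone.

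TXNIP differed 4.92-fold between its lowest and highest library, from 12.6 CPM with Aucklandiae Radix at the high dose to 61.9 CPM with Zizyphi Semen at the high dose, around a median of 50.8 CPM. In the vehicle it stood at 53.6, 54.4 and 48.2 CPM. Most groups lay inside or just below that range, and group means ranked from lowest to highest as Aucklandiae high, Aucklandiae medium, Soshiho-tang high, Aucklandiae low, Polygalae medium, Polygalae low, Yijin-tang low and Longan high. The vehicle had rank 20 of 25, and the highest means were those of Zizyphi high, Zizyphi medium and Schisandrae low. Of the 18 extract groups with replicates, 1 (Zizyphi high) lay wholly above the 3 vehicle libraries and 3 (Soshiho-tang high and medium, Longan high) wholly below them. The share of all genes with such counts was not computed, and the rule for the set names Longan and Zizyphi, so nothing is read from these counts. In bulk samples, fewer cells of a type and less RNA per cell cannot be told apart.

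**Figure D1:**
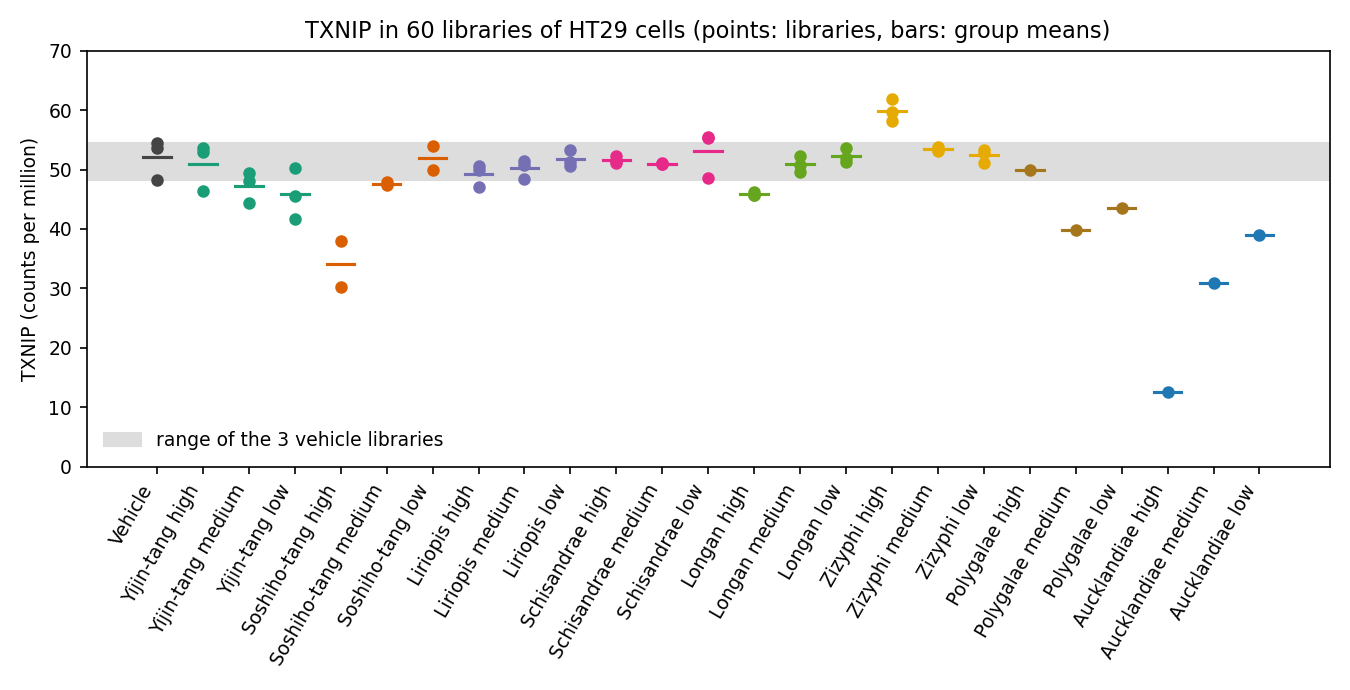
TXNIP in CPM (vertical axis) in each of the 60 libraries, by extract and dose (horizontal axis), with points for libraries and bars for group means. The libraries with Aucklandiae Radix at the high, medium and low dose (12.6, 30.8 and 39.0 CPM) and Soshiho-tang at the high dose (30.3 and 38.0 CPM) are the lowest points, and the 3 with Zizyphi Semen at the high dose (58.2 to 61.9 CPM) are the highest.

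Longan Arillus, the flesh of the longan fruit, and Zizyphi Semen, the jujube seed, stood on opposite sides of the vehicle for TXNIP at the high dose. TXNIP was at 46.3, 45.6 and 45.6 CPM with Longan and at 61.9, 58.2 and 59.7 CPM with Zizyphi. Every Longan library lay below the vehicle libraries and every Zizyphi library above them, and the extracts did not overlap. The log2 difference, Longan minus Zizyphi, was -0.43 ± 0.06 (SE), in a comparison where 0.0237% of all genes tested passed the threshold. This contrast chose the set, so nothing is read from that share. Nor is anything read from the lack of overlap, whose share over all genes was not computed.

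At the lower doses the extracts lay close together. At the medium dose TXNIP was at 50.8, 52.3 and 49.5 CPM with Longan and at 53.9, 53.1 and 53.2 CPM with Zizyphi, a log2 difference of -0.06 ± 0.06. At the low dose it was at 51.3, 51.9 and 53.6 CPM with Longan and 52.8, 51.1 and 53.4 CPM with Zizyphi (-0.05 ± 0.06). The extracts do not overlap at the medium dose, by a narrow margin, and they overlap at the low dose. Nothing is read from this either, as the share of all genes without overlap was not computed. No gene passed the threshold at the medium or low dose (0% of genes by edgeR, with 355 and 1022 at an unadjusted p under 0.05). Against the low dose of the same extract, which is within the library set, TXNIP at the high dose was -0.16 ± 0.06 with Longan and 0.21 ± 0.06 with Zizyphi on the log2 scale. Against the vehicle the values were -0.23 ± 0.06 and 0.20 ± 0.06, so the gap between the extracts was made up of departures of like size in both.

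ARRDC4 lay on the same side as TXNIP, with more scatter. With Longan at the high dose it was at 6.99, 7.95 and 7.11 CPM and with Zizyphi at 7.59, 8.66 and 9.45 CPM, a log2 difference of -0.27 ± 0.11. The groups overlap. At the medium dose the difference was -0.25 ± 0.10, with 6.75, 8.55 and 8.04 CPM against 8.38, 9.58 and 9.89 CPM, and at the low dose it was -0.04 ± 0.10. The vehicle, at 8.14, 10.1 and 7.72 CPM, spans most of these values.

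The other alpha-arrestins and the transcription factors showed no such gap. At the high dose ARRDC3 differed by -0.03 ± 0.08 (Longan minus Zizyphi, log2), ARRDC2 by 0.06 ± 0.08, MLXIP by -0.08 ± 0.07 and MLX by 0.00 ± 0.05. For each of these 4 the libraries of both extracts overlapped. MLXIPL, with few counts, differed by -0.69 ± 0.38, and its libraries overlapped too. At the low dose ARRDC2 was at 21.2, 21.2 and 21.3 CPM with Longan and at 16.2, 18.5 and 19.4 CPM with Zizyphi (0.19 ± 0.08), without overlap. The share of all genes without overlap was not computed, so nothing is read from that.

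**Figure D2:**
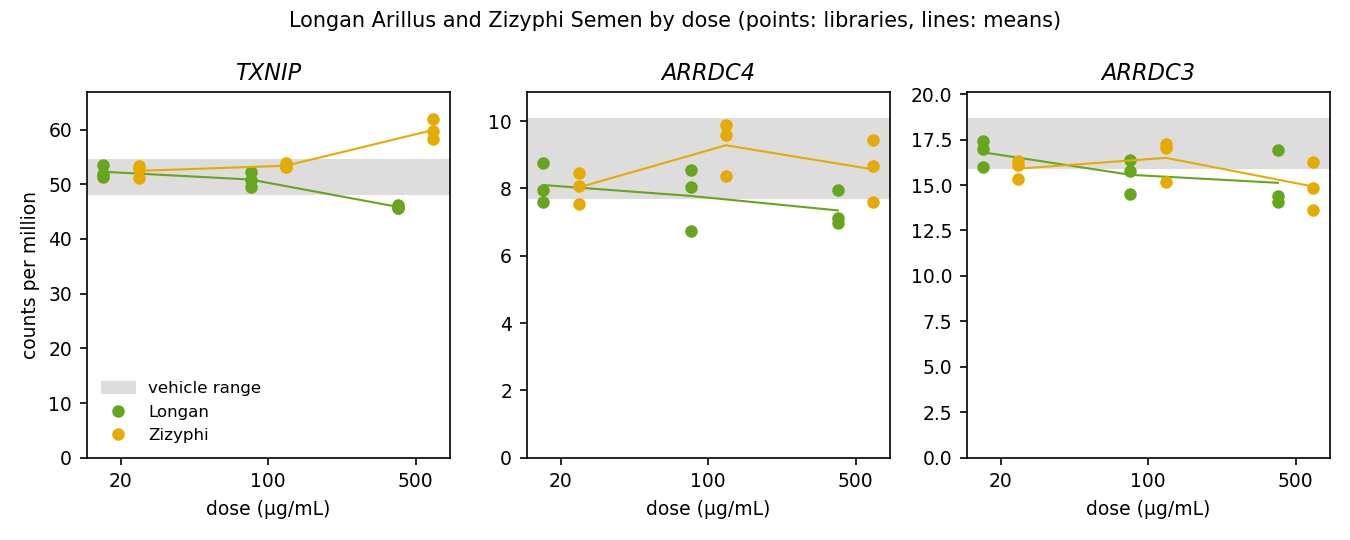
CPM (vertical axes, from 0) of member genes with Longan Arillus and Zizyphi Semen at 20, 100 and 500 µg/mL (horizontal axes), with points for libraries, lines for means and the vehicle for reference. TXNIP parts at 500 µg/mL, with means of 45.9 CPM (Longan) and 59.9 CPM (Zizyphi), and is close together at the lower doses.

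TXNIP fell with Soshiho-tang at the high dose, a comparison that the rule for the set does not name. TXNIP stood at 30.3 and 38.0 CPM in replicates 2 and 3, a mean of 34.1 ± 5.48 CPM (SD, n = 2), against 52.1 ± 3.36 CPM (SD, n = 3) in the vehicle. Both libraries lay below every vehicle library and below every other replicated library of the series, and the share of all genes that did so was not computed. TXNIP fell by 34.2% (log2 fold change -0.60 ± 0.06 SE, 95% interval -0.73 to -0.48, edgeR quasi-likelihood adjusted p = 2.81e-09). Without replicate 3, the library with blood cell RNA, the log2 fold change was -0.75, and without replicate 2 it was -0.46 (adjusted p = 1.57e-05 by edgeR), so both libraries show the direction.

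The fall held within the library set. At the low dose of Soshiho-tang TXNIP was at 54.01 and 49.9 CPM and at the medium dose at 47.4 and 47.9 CPM, above both high-dose libraries. The high dose was lower than the low dose by -0.54 ± 0.07 on the log2 scale (edgeR adjusted p = 3.61e-07), and lower than Yijin-tang at the high dose, with 46.4, 53.6 and 52.9 CPM, by -0.55 ± 0.06 (edgeR adjusted p = 6.74e-08). In the same fit the change from low to high dose differed between the extracts, by -0.66 ± 0.09 (Soshiho-tang minus Yijin-tang, edgeR adjusted p = 3.72e-06), where 4.38% of genes passed. That test was added after the values had been seen, and its call was lost with only the 4 groups compared.

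Besides TXNIP, 2 other members passed the test for Soshiho-tang at the high dose against the vehicle, so that 3 of 7 members were called where 7.93% of all genes were. ARRDC2 stood at 21.9 and 22.8 CPM, above the vehicle at 18.04, 17.1 and 16.5 CPM, and rose by 0.38 ± 0.08 (edgeR adjusted p = 0.00143). MLXIP stood at 155 and 137 CPM, below the vehicle at 196, 163 and 163 CPM, and fell by 0.25 ± 0.08 on the log2 scale (edgeR adjusted p = 0.0367). The MLXIP call ended without Soshiho-tang replicate 3 (-0.13, adjusted p = 0.6004) and without vehicle replicate 1 (-0.16, adjusted p = 0.284), while that of ARRDC2 held without the libraries that stand apart (0.37, adjusted p = 0.00780, edgeR). ARRDC4, at 6.86 and 8.37 CPM, did not pass (-0.17 ± 0.12, adjusted p = 0.479), and its libraries overlapped those of the vehicle. ARRDC3, at 18.3 and 20.6 CPM, did not pass either (0.21 ± 0.09, adjusted p = 0.138), nor did MLX (0.12 ± 0.06) or MLXIPL (-0.18 ± 0.43).

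Against the low dose of Soshiho-tang 4 of 7 members passed, where 6.29% of all genes did. Along with TXNIP, MLXIP fell by 0.32 ± 0.08 from 188 and 195 CPM at the low dose (edgeR adjusted p = 0.0122). ARRDC3 rose by 0.36 ± 0.10 from 16.0 and 15.7 CPM (edgeR adjusted p = 0.0132), and MLX rose by 0.26 ± 0.06 from 103 and 98.2 CPM to 109 and 121 CPM (edgeR adjusted p = 0.00667). In none of the 3 did the libraries overlap, but each dose has only 2 libraries. The share of all genes without overlap was not computed, so nothing is read from it. The 3 calls ended without high-dose replicate 3, with values of -0.21 for MLXIP (adjusted p = 0.394), 0.30 for ARRDC3 (adjusted p = 0.229) and 0.21 for MLX (adjusted p = 0.194), and also without low-dose replicate 3 (adjusted p = 0.122, 0.146 and 0.142 in the same order, edgeR). ARRDC2, at 19.7 and 19.8 CPM at the low dose, differed by 0.25 ± 0.09 (adjusted p = 0.103), and ARRDC4 by -0.03 ± 0.13. Against Yijin-tang at the high dose TXNIP was the 1 member that passed in edgeR, where 3.72% of genes did, while DESeq2 also called ARRDC2 (adjusted p = 0.0417) and MLX (adjusted p = 0.0361). ARRDC2 (0.27 ± 0.08, adjusted p = 0.0634), MLX (0.18 ± 0.06, adjusted p = 0.0868) and ARRDC3 (0.23 ± 0.09, adjusted p = 0.159) were nearest to the threshold in edgeR.

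With Yijin-tang 2 members passed, each by a narrow margin. At the low dose TXNIP was at 45.6, 41.7 and 50.3 CPM, overlapping the vehicle, and fell by 0.18 ± 0.06 on the log2 scale (edgeR adjusted p = 0.0287). ARRDC3 was at 13.8, 13.0 and 15.0 CPM, below the vehicle at 16.0, 18.6 and 15.9 CPM, and fell by 0.27 ± 0.08 (edgeR adjusted p = 0.0254). In this comparison 12.1% of all genes passed. Both calls ended without low-dose replicate 2 (adjusted p = 0.122 and 0.0958) and without vehicle replicate 2 (0.0748 and 0.106, edgeR). The TXNIP call also ended without vehicle replicate 1 (0.100) or low-dose replicate 1 (0.0506), and the ARRDC3 call without vehicle replicate 3 (0.0524). From the low to the high dose ARRDC3 rose by 0.25 ± 0.08 (edgeR adjusted p = 0.0270), where 21% of genes passed. That call ended without low-dose library 2 (0.227) or 1 (0.0538) and without library 2 (0.0979) or 3 (0.117) of the high dose, and TXNIP did not pass there (0.13 ± 0.06, adjusted p = 0.0960). No member passed at the high or medium dose of Yijin-tang against the vehicle, where 1.05% and 0.42% of genes did. The TXNIP value at the medium dose, with 44.4, 48.1 and 49.4 CPM, was -0.18 ± 0.06 (adjusted p = 0.185), as large as at the low dose.

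No member passed at the medium or low dose of Soshiho-tang against the vehicle (0.237% and 0.101% of genes) or against Yijin-tang (0.0178% and 0.0355%). With Liriopis none passed at the high, medium or low dose against the vehicle (0.45%, 0.373% and 0.491% of genes), nor with Schisandrae (0.693%, 0.474% and 0.16%). TXNIP at the high dose was at 47.0, 50.6 and 49.9 CPM with Liriopis, a log2 difference from the vehicle of -0.13 ± 0.06 (95% interval -0.24 to -0.02, adjusted p = 0.476). With Schisandrae it was at 51.5, 52.3 and 51.04 CPM (-0.06 ± 0.06, 95% interval -0.17 to 0.05, adjusted p = 0.842). These intervals leave out a fall of the size seen with Soshiho-tang. The high and low doses of Liriopis and of Schisandrae likewise gave no call among the members (0% and 0.189% of genes), nor did Schisandrae against Liriopis at the high, medium and low doses (0.0947%, 0% and 0%). Where edgeR called 0 genes, 321, 486 and 248 had an unadjusted p under 0.05, for Liriopis high against low and for Schisandrae against Liriopis at the medium and low doses, and DESeq2 called 1 gene in the first of these.

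Aucklandiae Radix, the root of costus, gave the lowest TXNIP and the highest ARRDC3 of the series, each in 1 library, so no test was made. TXNIP was at 12.6 CPM at the high dose (323 counts, exact 95% Poisson interval 11.2 to 14.0 CPM, counting error only), 30.8 CPM at the medium and 39.0 CPM at the low dose. The 3 libraries descend with dose, and all lie below every vehicle library. The vehicle mean was 4.14-fold higher than the high-dose value. Among 13181 genes that averaged 1 CPM or more in the vehicle, TXNIP had rank 263 from the lowest ratio, and 15.2% of those genes differed at least 2-fold either way. Against the low dose of the same extract TXNIP differed by -1.63 on the log2 scale, and 14.9% of genes differed at least 2-fold. In this library the 3 markers of endothelium summed to 8.45 CPM, nearly all of it PECAM1 (8.10 CPM), where the other libraries ranged from 0.732 to 2.43 CPM. The epithelial marker KRT20 was at 656 CPM against a median of 234, and VIL1 at 89.0 CPM against 162. Their part in the result was not tested.

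ARRDC3 went the other way at the high dose alone. It was at 61.5 CPM (95% Poisson interval 58.5 to 64.6) at the high dose, 15.9 CPM at the medium and 13.0 CPM at the low dose. The high-dose value was 3.65-fold that of the vehicle mean and 4.71-fold that of the low dose, and no other library of the series exceeded 20.6 CPM. ARRDC4 was at 7.67, 5.04 and 6.48 CPM at the high, medium and low dose, so it was lowest at the medium dose, and at the high dose it lay just under the lowest vehicle library, 7.72 CPM. TXNIP and ARRDC4 had like ratios to the vehicle at the medium dose (log2 -0.76 and -0.78) and at the low dose (-0.42 and -0.41). At the high dose they parted, with -2.05 for TXNIP and -0.17 for ARRDC4.

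Polygalae Radix, also with 1 library a dose, showed a like course for TXNIP and ARRDC4 at its lower doses. TXNIP was at 50.0, 39.8 and 43.5 CPM and ARRDC4 at 9.49, 6.10 and 6.96 CPM at the high, medium and low dose. The log2 ratios to the vehicle were -0.39 (TXNIP) and -0.50 (ARRDC4) at the medium dose and -0.26 and -0.31 at the low dose, but -0.06 and 0.14 at the high dose. Polygalae and Aucklandiae share library set 11, which holds no vehicle library, so their common part cannot be told apart from the set. ARRDC3 was at 15.7, 12.8 and 11.6 CPM in the 3 Polygalae libraries, with the lowest value of the series at the low dose.

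**Figure D3:**
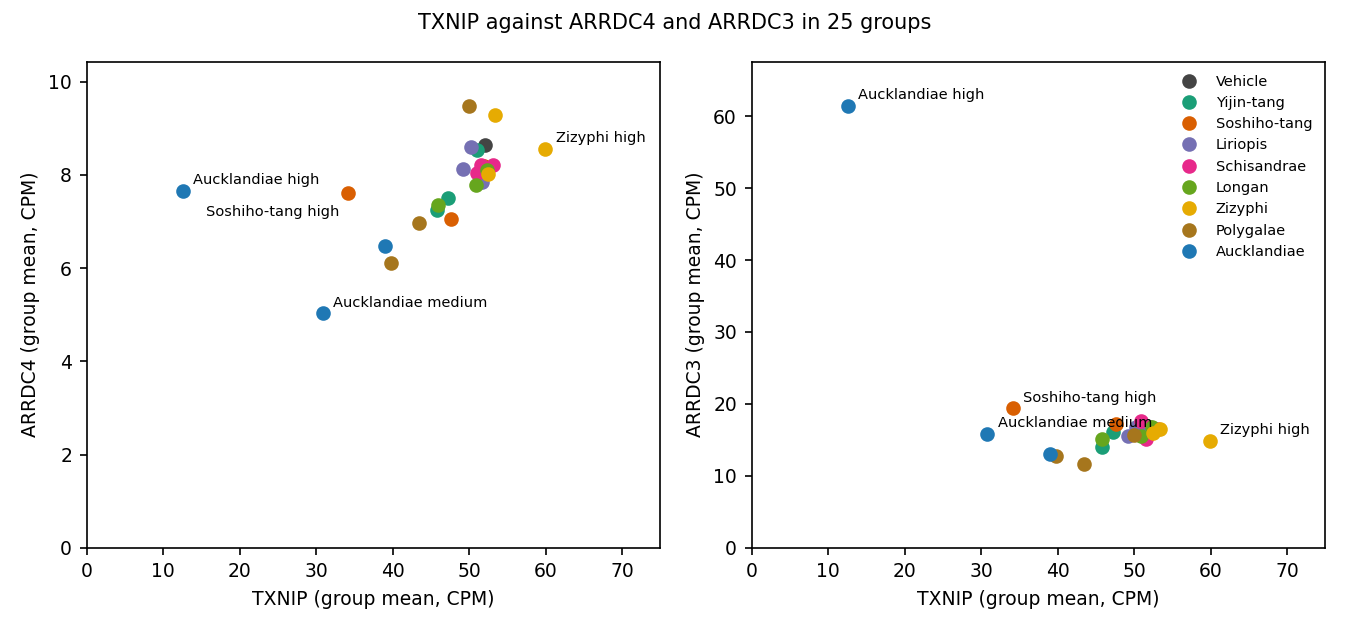
Group means in CPM of TXNIP (horizontal axes) against ARRDC4 and ARRDC3 (vertical axes) in the 25 groups, linear axes from 0. Groups low in TXNIP tend to be low in ARRDC4, apart from Aucklandiae Radix at the high dose (TXNIP 12.6 CPM). The groups lowest in ARRDC4 are single libraries, Aucklandiae and Polygalae at the medium and low doses. Soshiho-tang high has 34.1 and 7.62 CPM of TXNIP and ARRDC4, and Aucklandiae medium 30.8 and 5.04 CPM. ARRDC3 is at 61.5 CPM in Aucklandiae high and from 11.6 to 19.5 CPM elsewhere.

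Across the 25 group means, Pearson's r of log2(CPM + 1) between TXNIP and ARRDC4 was 0.41, and 0.81 over the 24 groups without Aucklandiae high. For TXNIP and ARRDC3 r was -0.78 over 25 groups and 0.16 over 24, so the inverse relation rests on that 1 library. For TXNIP and MLXIP it was 0.84 and 0.56. These groups share library sets and a control, and the values are descriptions. Without Aucklandiae high, the lowest ARRDC4 values were in single libraries of a common library set. TXNIP and ARRDC4 were at 30.8 and 5.04 CPM with Aucklandiae medium and 39.0 and 6.48 CPM with Aucklandiae low. They were at 39.8 and 6.10 CPM with Polygalae medium and 43.5 and 6.96 CPM with Polygalae low. Soshiho-tang high, with replicates, had 34.1 and 7.62 CPM. How far the r of 0.81 rests on those single libraries was not tested.

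ARRDC2 lay above the vehicle almost everywhere. The vehicle libraries were at 18.04, 17.1 and 16.5 CPM, and 16 of 18 replicated extract groups and 6 of 6 single libraries lay wholly above them. Of 13182 genes that averaged 1 CPM or more in the vehicle before rounding, 1.39% did so in at least 16 groups. The exceptions were Yijin-tang low (20.4, 14.6 and 18.6 CPM) and Zizyphi low (16.2, 18.5 and 19.4 CPM). The highest values were 28.1 CPM with Polygalae and 26.9 CPM with Aucklandiae, both at the high dose, where the log2 ratios to the vehicle were 0.71 and 0.65. The groups share the vehicle, which was another library set, so an offset of the vehicle set and a response to extracts cannot be told apart, and the high dose of Soshiho-tang was the 1 comparison with the vehicle in which ARRDC2 passed. The values for the high doses of Liriopis (0.28 ± 0.07, edgeR adjusted p = 0.0820) and Schisandrae (0.25 ± 0.07, adjusted p = 0.136) were nearest to it.

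The transcription factors varied less. MLXIP was at a median of 179 CPM and ranged 1.54-fold, with its lowest value of 127 CPM in the Aucklandiae high-dose library and its next lowest, 137 CPM, in Soshiho-tang high-dose replicate 3. These groups were also the lowest and the third lowest in TXNIP. MLX ranged 1.28-fold, from 96.0 to 123 CPM, highest with Polygalae at the high dose and at 121 CPM with Aucklandiae and in Soshiho-tang replicate 3. MLXIPL rested on 11, 10 and 10 counts in the vehicle (0.365, 0.374 and 0.328 CPM). Its largest difference was with Schisandrae at the medium dose, at 0.937, 0.586 and 0.717 CPM (log2 1.00 ± 0.35, edgeR adjusted p = 0.294), which did not pass. At this depth a 2-fold change of MLXIPL was therefore not called.

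**Figure D4:**
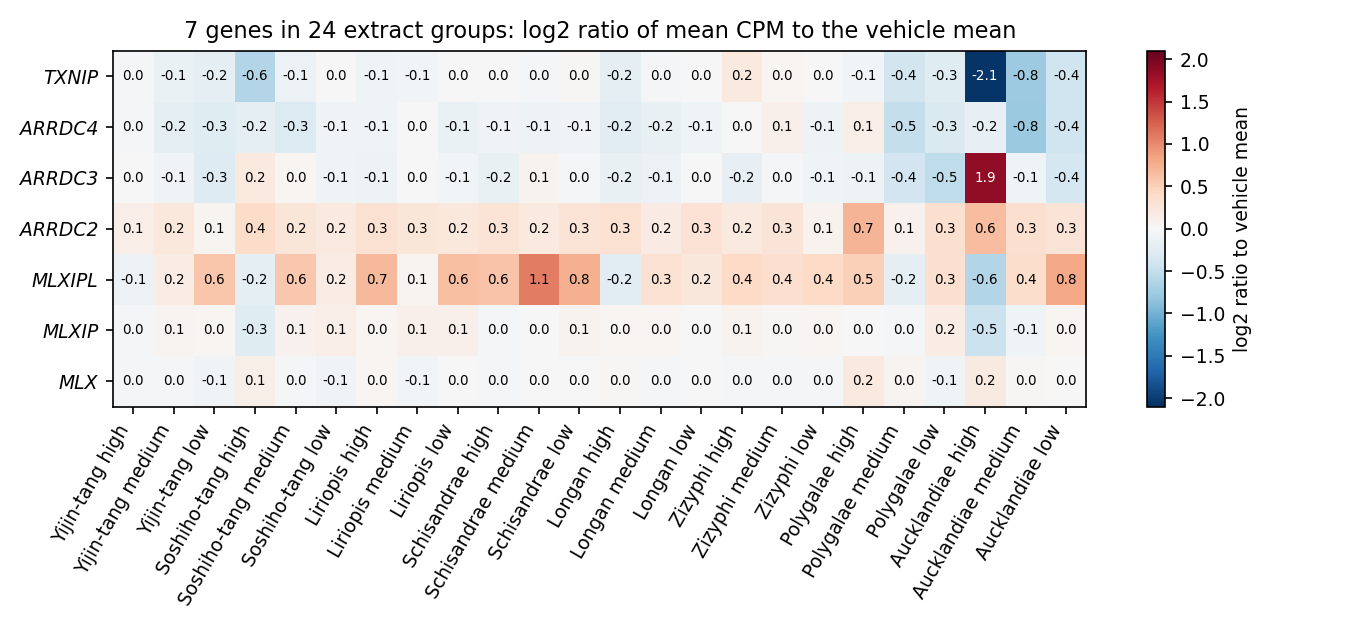
Log2 ratio of mean CPM to the vehicle mean (colour) for the 7 genes (rows) in the 24 extract groups (columns). The deepest values are TXNIP (-2.05) and ARRDC3 (1.87) with Aucklandiae Radix at the high dose, and ARRDC2 is above the vehicle in all 24 groups.

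Genes that act around these members were followed in 7 lists, drawn up with earlier results of these data known. The percentages of all genes given beside the list counts belong to the main fit. The number of genes called moved in fits with libraries left out, so list counts from those fits cannot be read against these percentages. Of 12 tested targets of MLXIP and MLXIPL other than TXNIP and ARRDC4, such as lipogenic enzymes, none passed for Soshiho-tang at the high dose against the vehicle, and their median log2 fold change was 0.14 beside -0.00035 over all genes tested, of which 7.93% passed. Without both libraries that stand apart 3 of the 12 were called higher. KLF10, a member of that list, rose against the low dose (0.37 ± 0.12, edgeR adjusted p = 0.0451), a call that ended without either high-dose library. None of 7 ligases of the NEDD4 family, the partners of alpha-arrestins, passed (median 0.08), and 2 were called higher without both libraries that stand apart. Of 3 other arrestins (median -0.02) 1 fell, the beta-arrestin ARRB1 (-0.32 ± 0.06, edgeR adjusted p = 0.000528), a call that ended without replicate 3 (adjusted p = 0.103).

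Of 20 tested genes of glucose uptake and glycolysis, 5 rose and 1 fell with Soshiho-tang at the high dose against the vehicle, where 7.93% of all genes passed, with a median of 0.17. Without replicate 3 the counts were 2 and 1, and without both libraries that stand apart 8 and 1. SLC2A1 (GLUT1), the main basal glucose transporter and a cargo of TXNIP, was at 776 against 478 CPM (0.70 ± 0.04, edgeR adjusted p = 1.68e-15). SLC5A1 (SGLT1), the sodium-coupled glucose transporter of the intestine, was at 4.76 against 9.46 CPM (-0.99 ± 0.13, adjusted p = 4.17e-07). PFKP, a phosphofructokinase, rose by 0.54 ± 0.08 (adjusted p = 9.97e-06, edgeR) and ENO1, an enolase, by 0.30 ± 0.08 (adjusted p = 0.00838), a call that ended without replicate 3. Of the 4 thioredoxin partners (median 0.14) 1 passed, TXNRD1, which reduces thioredoxin, at 575 against 318 CPM (0.86 ± 0.07, edgeR adjusted p = 3.76e-12).

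Among 11 FOXO targets, a list kept because TXNIP is itself known as one, 4 fell and none rose, where 7.93% of all genes passed, with a median of -0.21. The number that fell was 2 without replicate 3 and 3 without both libraries that stand apart. SESN1, a sestrin, was at 14.9 against 25.1 CPM (-0.75 ± 0.06, edgeR adjusted p = 2.96e-12). The others were SESN3 (-0.70 ± 0.19), CITED2 (-0.62 ± 0.13) and FBXO32 (-0.38 ± 0.09). Of 9 genes of the MAX and MXD network, which shares MLX (median -0.04), 2 fell, MYCL (-0.70 ± 0.11) and MXD4 (-0.53 ± 0.06), and none rose. Without both libraries that stand apart 1 of that network was called higher.

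Against the low dose of Soshiho-tang, where 6.29% of all genes passed, 5 of the glycolysis list rose and 1 fell, and 4 FOXO targets fell. Without replicate 3 the counts were 2 and 1, and 2 FOXO targets. Without both libraries that stand apart they were 4 and 1, and 4 FOXO targets. Of the MAX and MXD network 2 rose, MAX (0.33) and MYC (0.31), and 2 fell, MXD4 (-0.72) and MYCL (-0.72), while without replicate 3 none rose and 2 fell. SLC2A1 (0.70), SLC5A1 (-1.16), TXNRD1 (0.70) and SESN1 (-0.84) again passed. Lists with Longan against Zizyphi at the high dose gave no call. In that comparison 0.0237% of all genes passed, and it chose the set, so nothing is read from this.

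**Figure D5:**
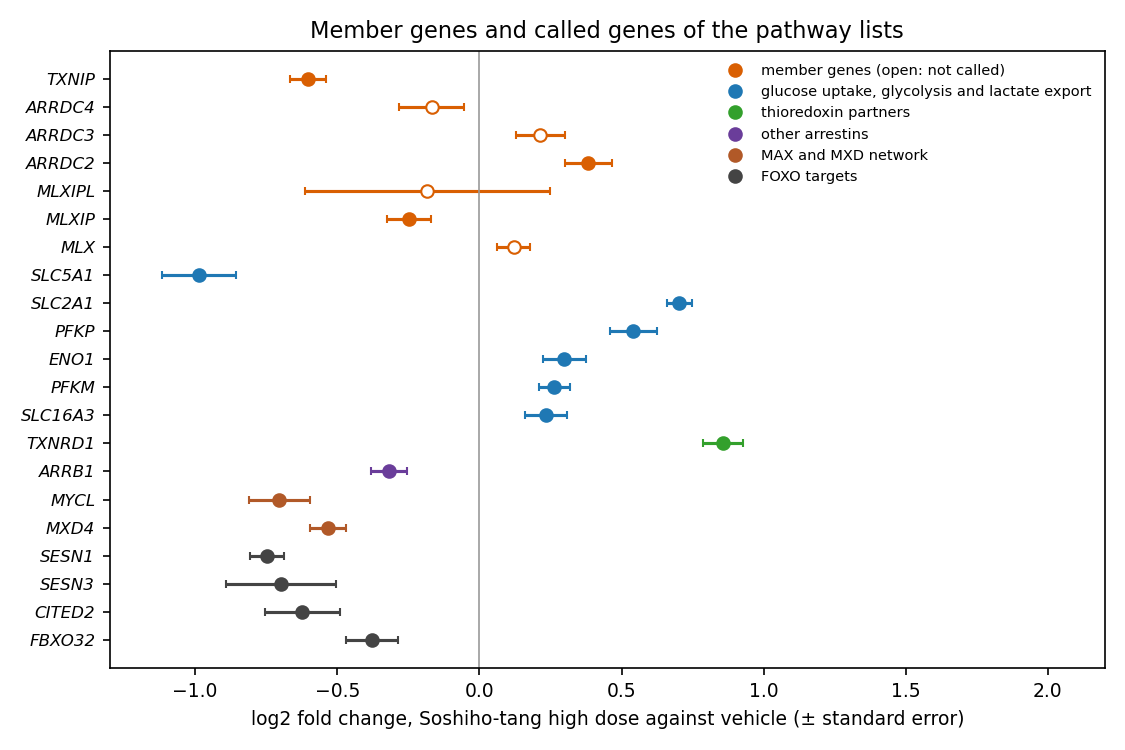
Log2 fold change with its standard error (horizontal axis) for Soshiho-tang at the high dose against the vehicle, for the 7 members and the called genes of the lists (rows). TXNIP (-0.60) lies left of 0 with SLC5A1 (-0.99) and SESN1 (-0.75), and TXNRD1 (0.86) and SLC2A1 (0.70) lie to the right.

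In the Aucklandiae high-dose library the same transporters lay further from the vehicle, as single values without a test. SLC2A1 was at 2301 CPM, 4.82-fold the vehicle mean, the lactate exporter SLC16A3 at 216 CPM (4.51-fold) and TXNRD1 at 1332 CPM (4.18-fold), while the vehicle was 6.57-fold higher for SLC5A1, at 9.46 against 1.44 CPM, and 3.83-fold higher for SESN1, at 25.1 against 6.54 CPM. Of 20 genes of the glycolysis list with at least 1 CPM, 4 were at least 2-fold higher and 1 lower, where 15.2% of all genes were 2-fold off either way. Of 10 FOXO targets 2 were lower, SESN1 and SESN3, and 2 were higher, KLF9 (3.05-fold) and FBXO32 (2.23-fold), the last of which fell with Soshiho-tang. KLF10 was 2.24-fold higher at 119 CPM, and of 11 MLXIP and MLXIPL targets 1 was higher and 2, KHK and ACACB, were lower. KLF10 and TXNIP, both known as targets of MLXIP, thus lay on opposite sides of the vehicle.

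Among the 5 genes whose group means were most like those of TXNIP, by Pearson's r of log2(CPM + 1) over 25 groups among 10273 genes, were TSPYL4 (0.954), MEX3A (0.950), ZNF711 (0.948) and RASL11A (0.947). These high values rest on Aucklandiae high, where RASL11A was at 1.83 CPM against 16.5 in the vehicle and 7.16 with Soshiho-tang at the high dose. Over the 24 groups without it the first 3 were SKP2 (0.837), MEX3A (0.818) and ARRDC4 (0.812), and by Spearman's rank correlation over 25 groups EDN1 (0.752) and ARRDC4 (0.742) came first. The 5 most like ARRDC4 were TAF1A (0.826), ZNF211 (0.759), MSANTD4 (0.749), WDR89 (0.747) and C1orf74 (0.733). Without Aucklandiae high TAF1A (0.879) was again first for ARRDC4 and TXNIP (0.812) second, so each of the 2 arrestin-domain genes was then among the 3 genes most like the other. The groups ranked include those of Longan and Zizyphi, on whose values the members were selected, so nothing is read from these ranks.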

How the data were processed

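The authors deposited a table of expected counts per gene, not normalized, for 60 libraries. Per the submitters' processing notes, FastQC 0.11.9, Trim Galore 0.6.5, STAR 2.7.3a, RSEM 1.3.3 and GRCh38 were used. Per the labels' protocols, directional libraries of mRNA were read in pairs of 100 bases. The annotation release and the strand setting are not given in the sources used here. Whole numbers, to within 1e-09, made up 89.9% of the values, and symbols were found for 56558 of 60675 IDs. Gene positions and exon lengths came from GENCODE 29, promoter windows from RefSeq.

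Expected counts were rounded. In R 4.3.3, edgeR 4.0.16 kept 16890 genes by filterByExpr, all 7 members among them, scaled the libraries by TMM and fitted 1 quasi-likelihood model with the group as its term to the 54 libraries of the 19 groups with replicates (35 residual degrees of freedom, biological coefficient of variation 9.71%). For 33 comparisons, p-values were Benjamini-Hochberg adjusted over all genes, with a threshold of 0.05, and every adjusted p in the text comes from this fit or an alternative of it unless DESeq2 1.42.0 is named. The sign ± gives the standard error of a log2 fold change or the SD of CPM, the count per 1000000 of the library total. Single libraries were set against the vehicle mean, with genes called at 2-fold either way. The steps were tested on simulated data.

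Named were all members, at most 4 called genes per list and comparison, and the 5 genes most like TXNIP and ARRDC4 among those with a mean of at least 5 CPM, of which 1 is not reported here. List genes at least 2-fold off in the Aucklandiae high-dose library, the difference between Soshiho-tang and Yijin-tang in dose response and the likeness without Aucklandiae high were chosen after seeing the data. Members and lists were chosen with earlier results of these data known. Alternatives were DESeq2, RLE scaling, no filter on low counts, only the groups compared, the replicate number as a block, each library left out, and both libraries that stand apart left out.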

Additional observations from a re-analysis of the deposited data

Results flagged for a closer look

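The change in TXNIP from the low to the high dose differed between Soshiho-tang and Yijin-tang, the extracts of a common library set, by -0.66 ± 0.09 on the log2 scale (SE, edgeR quasi-likelihood adjusted p = 3.72e-06), and this tested difference between extracts is what marks it for a closer look. TXNIP was lower at the high dose with Soshiho-tang (30.3 and 38.0 CPM against 54.01 and 49.9 CPM at the low dose), while with Yijin-tang the high-dose libraries (46.4, 53.6 and 52.9 CPM) overlapped those of the low dose (45.6, 41.7 and 50.3 CPM). Without the libraries that stand apart the value was -0.81. The test was chosen after seeing the data, and its call was lost with only the 4 groups compared (edgeR adjusted p = 0.840).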

How the results depend on the processing

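The fall of TXNIP with Soshiho-tang at the high dose against the vehicle and against Yijin-tang kept its direction and its call under every alternative run (-0.76 to -0.46 and -0.70 to -0.41). Leaving out 1 library at a time gave -0.75 to -0.46, and -0.70 to -0.41. Against the low dose it ranged from -0.69 to -0.40 and was lost with only the 2 groups compared (-0.54, adjusted p = 0.0636). The TXNIP difference in dose response between Soshiho-tang and Yijin-tang (-0.82 to -0.53) was lost with only the 4 groups compared (-0.66, adjusted p = 0.840). Both of these fits hold fewer libraries than the main fit, and why the calls were lost was not tested. TXNIP in Yijin-tang high against low ranged from 0.088 to 0.18 with 1 library left out and passed in 2 cases (0.18 without high-dose replicate 1, 0.17 without low-dose replicate 3). In Schisandrae high against low it ranged from -0.076 to 0.021, with the sign turned without low-dose replicate 1 (0.021) or 3 (0.0027). TXNIP and ARRDC4 in Longan against Zizyphi at the high dose ranged from -0.44 to -0.41 and from -0.35 to -0.19. ARRDC2 with Liriopis at the high dose passed by DESeq2 (adjusted p = 0.0244), without Liriopis replicate 2 (0.0313) and without the libraries that stand apart (0.00939), and with Schisandrae in the last of these (0.0184).

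Counts of called genes moved more. For Soshiho-tang high against vehicle (1339) they were 866 without a filter, 475 with the 2 groups compared, 2152 without the libraries that stand apart and 674 to 1195 with 1 library left out. Soshiho-tang high against low (1062) gave 641 without a filter, 288 with its groups only and 494 to 997. Soshiho-tang against Yijin-tang high (629) gave 271 with its groups only and 286 to 593. The difference in dose response (739) gave 1209 without a filter, 1 with its groups only, 1563 by DESeq2, 325 without the libraries that stand apart and 152 to 4595. In the same order of settings, where they moved, Yijin-tang low against vehicle (2039) gave 0 with its groups only, 339 without those libraries and 258 to 6522, and Yijin-tang high against low (3552) gave 0, 113 and 80 to 7384. Yijin-tang high against vehicle (177) gave 81 without a filter, 92, 1240 and 75 to 194. Liriopis high (76) gave 30, 21, 163 by DESeq2, 841 and 18 to 115. Schisandrae high (117) gave 52 without a filter, 218 by DESeq2, 1070 and 48 to 142. Schisandrae high against low (32) gave 17, 75, 90 and 18 to 23, and Schisandrae against Liriopis high (16) gave 9, 42, 27 by DESeq2, 73 and 7 to 12. Liriopis high against low (0) gave 1 by DESeq2. The causes were not tested.

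Samples share replicate numbers, but in no comparison did all same-numbered pairs deviate together (r over 0.1), so the numbers do not pair them. With the replicate block TXNIP in Soshiho-tang high against vehicle was -0.61 (adjusted p = 7.13e-09), and ARRDC2 passed with Liriopis high (0.28, adjusted p = 0.0314) and in Soshiho-tang against Yijin-tang high (0.29, adjusted p = 0.0159). Depth limits MLXIPL, with 5 to 22 counts in a library, and single libraries have no replicate check.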

Other observations

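TXNRD1, thioredoxin reductase, was called higher against the vehicle with Yijin-tang at the high dose (0.37 ± 0.06 on the log2 scale, edgeR adjusted p = 0.000436) and with Schisandrae at the high dose (0.31 ± 0.06, adjusted p = 0.00756), where TXNIP did not pass. GPD1, glycerol-3-phosphate dehydrogenase and a ChREBP target, was lower with Yijin-tang at the high dose (-0.43 ± 0.09, edgeR adjusted p = 0.0112). PDK4, a pyruvate dehydrogenase kinase and FOXO target, was higher with Schisandrae at the high dose (0.47 ± 0.09, edgeR adjusted p = 0.00322). PFKL, liver-type phosphofructokinase, was higher with Liriopis at the high and low doses (0.21 and 0.22) and with Schisandrae at the medium dose (0.23). The vehicle is another library set in each of these, so extract and set cannot be told apart.

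MYC, whose partner MAX belongs to the network that shares MLX, was lower than in the vehicle with Yijin-tang at the high, medium and low doses (-0.36, -0.39 and -0.56 on the log2 scale) and with Soshiho-tang at the low dose (-0.46, edgeR adjusted p = 0.0136). MYCL was lower with Yijin-tang at the high dose (-0.60 ± 0.10, edgeR adjusted p = 0.000109). Here too the vehicle is another library set, so extract and set cannot be told apart. MYC was at a mean of 340 CPM in the vehicle, against a median of 295 CPM over all libraries. The low dose of Yijin-tang includes library 2, which stands apart, and MYC in that group had an SD of 45.1 CPM.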
